A study of Mus musculus with 12 samples.

Results

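The pyruvate dehydrogenase complex sits in the mitochondrial matrix and turns pyruvate, the end product of glycolysis, into acetyl-CoA for the citric acid cycle. Transcripts of 9 genes of this complex and its switch were followed in mouse soleus, a slow postural muscle of the hind limb, matched by symbol among the 30323 genes of the deposited table. They are the 4 core subunit genes Pdha1, Pdhb, Dlat and Pdhx, the 4 kinase genes Pdk1, Pdk2, Pdk3 and Pdk4, and the phosphatase gene Pdp1. All 9 were found, and 8 of them were abundant enough to be tested.

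The mice were male, of the C57BL/6N strain and 24 months old, came from an aging colony, lived singly and had 8 weeks with running wheels. An accelerating rotarod had sorted them into low functioning (LF) and high functioning (HF) animals, and each of these had a control or a laparotomy arm, with soleus taken 5 days after surgery. With 3 libraries each, the 4 groups are written as function and treatment (HF control, for example), and the number after a group names a library in accession order and pairs nothing. No group lacks the age or the wheels, so neither was varied here. Whether every library is a separate mouse is not in the labels, so a p-value here measures the library to library spread, which could be technical only. Values are TPM, transcript abundances scaled to a common library total, which correct for transcript length and so allow genes to be set beside each other, and the depth behind them is unknown. TPM are shares of a library, and in whole muscle fewer cells of a type and less RNA per cell cannot be told apart.

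The complex works as a relay of enzymes. E1, a tetramer of alpha (Pdha1) and beta (Pdhb) chains, decarboxylates pyruvate with thiamine pyrophosphate, E2 (Dlat) carries the acetyl group on lipoyl arms to coenzyme A, and E3-binding protein (Pdhx) anchors E3 (Dld), which reoxidises the arms. The kinases phosphorylate serines of the E1 alpha chain and so switch the complex off, and the phosphatase, of which Pdp1 is a calcium-activated catalytic subunit prominent in muscle, switches it on. In muscle Pdk4 is known for its induction by fasting, glucocorticoids and fatty acids, Pdk2 for its broad expression, Pdk1 for its induction by hypoxia through Hif1a, and Pdk3 for its expression in testis, kidney and brain.

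The promoters of 4 of these genes are shown because the genes go on to behave differently: Dlat fell furthest among the core subunits, Pdhb stayed closest to the average gene, Pdk2 tracked Pdha1 and Pdk4 varied most between libraries among the tested genes. Each run is the 250 bases upstream of a RefSeq transcription start on GRCm38.p6, written 5′ to 3′ on the minus strand of the chromosome, which codes for all 4 genes. They lie at chr9:50659781-50660030 (Dlat), chr14:8172993-8173242 (Pdhb), chr11:95041372-95041621 (Pdk2) and chr6:5496279-5496528 (Pdk4). Capitals mark the CCAAT box, found here in its reverse form ATTGG.
Dlat: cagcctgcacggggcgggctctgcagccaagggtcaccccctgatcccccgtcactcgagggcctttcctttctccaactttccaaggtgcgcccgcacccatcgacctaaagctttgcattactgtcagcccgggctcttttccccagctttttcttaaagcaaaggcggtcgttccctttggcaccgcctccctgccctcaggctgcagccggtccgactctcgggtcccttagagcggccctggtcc
Pdhb: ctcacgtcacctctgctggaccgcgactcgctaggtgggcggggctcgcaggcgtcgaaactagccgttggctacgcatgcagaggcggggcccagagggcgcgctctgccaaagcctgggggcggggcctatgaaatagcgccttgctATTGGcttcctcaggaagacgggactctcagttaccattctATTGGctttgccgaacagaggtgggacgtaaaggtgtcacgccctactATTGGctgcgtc
Pdk2: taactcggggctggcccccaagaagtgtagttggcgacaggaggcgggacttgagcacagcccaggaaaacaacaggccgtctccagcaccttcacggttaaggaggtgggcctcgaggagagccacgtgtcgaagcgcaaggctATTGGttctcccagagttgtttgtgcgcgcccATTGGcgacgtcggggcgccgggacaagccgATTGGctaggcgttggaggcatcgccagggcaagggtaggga
Pdk4: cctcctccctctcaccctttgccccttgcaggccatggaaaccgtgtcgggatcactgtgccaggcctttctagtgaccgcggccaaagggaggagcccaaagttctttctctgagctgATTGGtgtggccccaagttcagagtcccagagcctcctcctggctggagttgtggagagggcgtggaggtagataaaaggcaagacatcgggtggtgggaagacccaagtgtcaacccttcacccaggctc
Read on both strands, the Pdhb window held 3 CCAAT boxes, at 101, 60 and 12 bases before the start. The Pdk2 window held 3 as well, at 105, 73 and 42 bases, and the Pdk4 window held 1 at 131 bases, while the Dlat window had none. A window with CCAAT on either strand is common, at 33.8% of 32851 RefSeq windows of the same length. Whether these boxes bear on the levels of the 4 genes was not tested.

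RefSeq gave 10 windows for 8 of the 9 genes. The GC box GGGCGG occurred in those of Pdk1, Pdhx, Dlat, Pdhb and Pdk3, against 32.7% of all windows. The windows that held it were 61.6% to 68.4% G and C, against a median of 52.4% and an upper quartile of 61.2% in all windows. Whether the box was more frequent than this base content gives was not tested. The E-box CACGTG, found in 6.02% of all windows, occurred in a window of Pdk2 alone, 126 bases before the start. It contains the shorter HIF core ACGTG (16.6% of all windows), which also occurred in the windows of Pdhb and Pdk3. The letters AAGGTCA of an estrogen-related receptor site (4.08% of all windows), GCATGCGC of NRF1 (2.26%), TGTTTAC of FOXO factors (3.17%), TGACGTCA of CREB (1.55%) and TATAAA of a TATA box (12.4%) were in none of the 10 windows. These are matches of letters and not binding sites.

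Within the soleus the core subunits were unequal. On the TPM scale, the order over all 12 libraries was Pdha1 (319 to 565), Pdhb (228 to 306), Pdk2 (179 to 348), Pdk4 (90.1 to 242), Dlat (75.8 to 142), Pdk1 (34.5 to 63.4), Pdhx (28.2 to 48.9), Pdp1 (17.0 to 35.4) and Pdk3 (0.635 to 1.25). Pdha1 stood above Pdhb, Dlat above Pdk1 and Pdp1 above Pdk3 in every library, with no overlap of their ranges. The other neighbours in that order overlapped. The 4 kinases were carried by Pdk2, with 52.5% of their summed TPM on average (43.6% to 62.5%), followed by Pdk4 with 35.9% (25.6% to 47.2%), Pdk1 with 11.5% (9.02% to 14.9%) and Pdk3 with 0.205% (0.141% to 0.286%). Pdk4 exceeded Pdk2 in 2 of 12 libraries, LF laparotomy 1 and HF control 2.

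**Figure D1:**
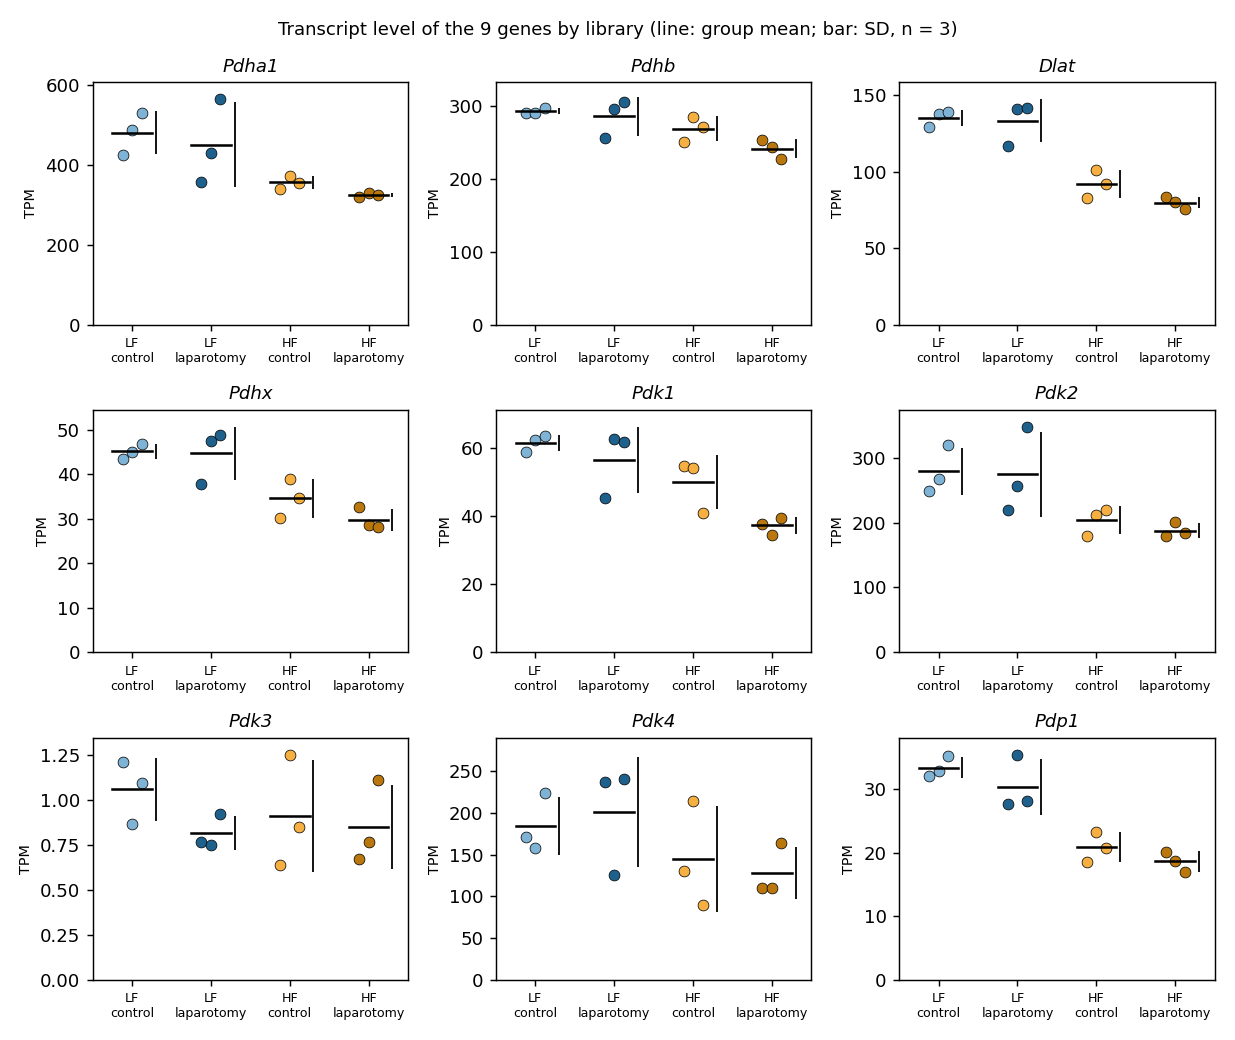
TPM of each of the 9 genes (vertical axes, from 0) in the 12 libraries (points) of the 4 groups (horizontal axis), with the group mean as a line and the SD of n = 3 libraries as a bar. For Dlat, Pdk2 and Pdp1 all 6 HF points lie below all 6 LF points, and Pdk4 spreads from 90.1 to 242 TPM.

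The main comparison asked how HF and LF soleus differ in these genes, with the treatments averaged. Transcripts of the complex and of both sides of its switch were lower in HF: of the 8 tested genes limma called 7 lower and 0 higher, with Dlat and Pdp1 lowest, at 36.1% and 38.0% less TPM than in LF. In this contrast 35.3% of the 10757 tested genes were called lower, so a lower call is common here. Differences below are on the scale of log2(TPM + 1) ± SE and are centred on the all-gene median, which was itself -0.147 as deposited. The adjusted p, Benjamini-Hochberg over all tested genes with a threshold of 0.05, tests the difference before this centring. The median difference of the 8 genes was -0.331, while the middle 50% of all tested genes ran from -0.179 to 0.181. With median-of-ratios size factors, which brought the all-gene median to 0.0138, 6 of the 8 genes were called lower and 0 higher, against 20.6% of all genes called lower.

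Pdha1, the E1 alpha chain that carries the regulatory serines, stood at 424, 486 and 530.2 TPM in LF control 1, 2 and 3 and at 358, 429 and 565 in LF laparotomy. It stood at 341, 373 and 356 in HF control and at 319, 329 and 324 in HF laparotomy. LF libraries were high and far apart, HF libraries low and close together, and 5 of the 6 HF libraries lay below every LF library. The difference was -0.29 ± 0.099 (limma adjusted p = 0.00448), a mean 26.9% lower in HF.

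Pdhb, the E1 beta chain, had the smallest difference of the 8 genes. It stood at 291, 291 and 298 TPM in LF control and at 256, 297 and 306 in LF laparotomy, against 251, 285 and 272 in HF control and 254, 244 and 228 in HF laparotomy. The groups overlapped through LF laparotomy 1 and HF control. The mean was 11.9% lower in HF and passed (limma adjusted p = 0.0397), but relative to the median gene the difference was -0.04 ± 0.066, with a 95% interval from -0.178 to 0.106. This call ended with size factors (adjusted p = 0.884), on rescaled TPM (0.0966), with a length and GC trend removed (0.482) and in 10 of 12 fits with 1 library left out (0.0503 to 0.0996). Of the fits with 1 library left out it held in those without LF laparotomy 1 (0.00914) or HF control 2 (0.0362), and in the other 7 alternative fits adjusted p was 0.0359 to 0.0489.

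Dlat, the E2 acetyltransferase core, stood at 129, 138 and 139 TPM in LF control and at 117, 141 and 142 in LF laparotomy. It stood at 82.6, 101 and 92.2 in HF control and at 83.2, 80.6 and 75.8 in HF laparotomy. Every HF library lay below every LF library, a separation seen in that direction in 9.31% of tested genes. The difference was -0.50 ± 0.073, with a 95% interval from -0.654 to -0.336 (limma adjusted p = 0.00031).

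Pdhx, the E3-binding protein, stood at 43.4, 45.0 and 46.9 TPM in LF control and at 37.9, 47.4 and 48.9 in LF laparotomy. It stood at 30.2, 39.0 and 34.5 in HF control and at 32.6, 28.5 and 28.2 in HF laparotomy. HF control 2 was the only HF library that reached into the LF range, above LF laparotomy 1. The difference was -0.33 ± 0.085 (limma adjusted p = 0.00145), a mean 28.3% lower.

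Among the kinases, Pdk2 stood at 249.4, 268 and 320.4 TPM in LF control and at 219.7, 257 and 348 in LF laparotomy. It stood at 180.0, 212 and 219.6 in HF control and at 179, 201 and 183 in HF laparotomy. HF and LF did not overlap, though HF control 3 and LF laparotomy 1 nearly met. The difference was -0.34 ± 0.11 (limma adjusted p = 0.00417).

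Pdk1, the kinase known for hypoxic induction, stood at 58.9, 62.4 and 63.4 TPM in LF control and at 45.4, 62.5 and 61.7 in LF laparotomy. It stood at 54.7, 54.2 and 40.8 in HF control and at 37.7, 34.5 and 39.5 in HF laparotomy. All HF laparotomy libraries were below every other library, and the groups overlapped because LF laparotomy 1 was lower than HF control 1 and 2. The HF difference was -0.30 ± 0.098 (limma adjusted p = 0.004), a mean 26.2% lower.

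Pdk4, the kinase induced by fasting and fatty acids, stood at 171, 158 and 224 TPM in LF control and at 238, 125 and 242 in LF laparotomy. It stood at 131, 214 and 90.1 in HF control and at 110, 110 and 164 in HF laparotomy. The groups overlapped widely, with HF control 2 among the high libraries and LF laparotomy 2 among the low ones. The difference was -0.37 ± 0.22, with a 95% interval from -0.837 to 0.094, and did not pass (limma adjusted p = 0.0695). Its coefficient of variation was 19.0% to 43.7% in the 4 groups, against 1.39% to 9.26% for Pdhb and 6.27% to 24.0% for Pdk2. Of 22 alternative fits Pdk4 passed in 3, when LF laparotomy 2 (limma adjusted p = 0.0207), HF control 2 (0.0136) or HF laparotomy 3 (0.0439) was left out. In the other 19 it did not pass, with adjusted p = 0.227 with size factors. The highest was 0.369, without the libraries with Myh4 above 30 TPM.

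Pdk3 ran from 0.635 to 1.25 TPM with a mean of 0.907, under the minimum of 1 TPM, and was not tested. Fitted without that minimum it differed by -0.04 ± 0.092 between HF and LF (limma adjusted p = 0.794), with a 95% interval from -0.243 to 0.168. The 6 LF libraries ran from 0.75 to 1.21 TPM and the 6 HF libraries from 0.635 to 1.25, so they overlapped almost entirely.

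Pdp1, the phosphatase that reverses the kinases, stood at 32.2, 32.9 and 35.2 TPM in LF control and at 27.6, 35.4 and 28.1 in LF laparotomy. It stood at 18.6, 23.4 and 20.8 in HF control and at 20.2, 18.7 and 17.0 in HF laparotomy. All HF libraries lay below all LF libraries. The difference was -0.52 ± 0.084, with a 95% interval from -0.698 to -0.334 (limma adjusted p = 0.000368).

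By role, the count called lower was 4 of 4 core subunits, 2 of 3 tested kinases and the 1 phosphatase, with medians of -0.307, -0.338 and -0.516. With size factors it was 3 core subunits, 2 kinases and the phosphatase. Core subunits and kinases thus had nearly the same median difference, and whether the roles differ was not tested. Dlat, Pdk2 and Pdp1 were the 3 of 8 tested genes without overlap between HF and LF. Over all tested genes, 9.31% had every HF library below every LF library. For Pdk2 the edges nearly met, at 219.6 TPM in HF control 3 and 219.7 in LF laparotomy 1. The calls of Pdha1, Dlat, Pdhx, Pdk1, Pdk2 and Pdp1 held in all 22 alternative fits of this contrast, with adjusted p up to 0.0282.

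**Figure D2:**
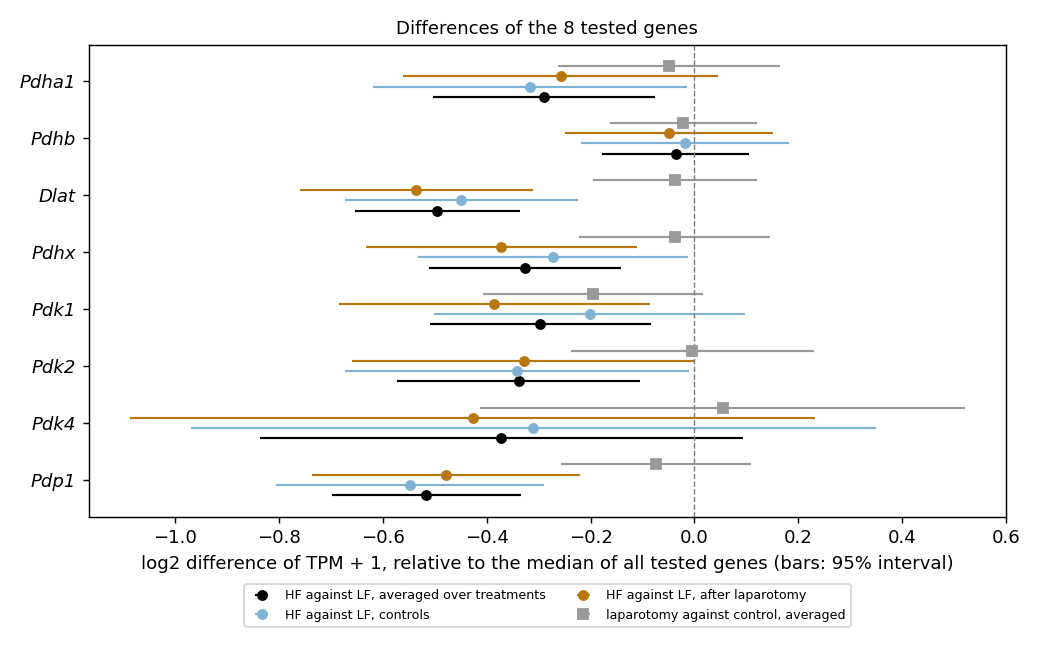
Log2 difference of TPM + 1 centred on the all-gene median (horizontal axis) for the 8 tested genes (vertical axis), with 95% intervals as bars. Black, light blue and brown circles show HF against LF averaged, in controls and after laparotomy, and grey squares show laparotomy against control; Dlat and Pdp1 have the lowest black circles, at -0.50 and -0.52, while Pdhb lies at -0.04.

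Ratios within a library do not depend on a library-wide scaling, and they show which parts of the complex moved together. Per 100 TPM of Pdha1 there were 59.5 ± 2.39 TPM of Pdk2 in LF and 57.6 ± 3.36 in HF (mean ± SD, n = 6 each), with ranges of 55.1 to 61.5 and 52.9 to 61.8. This kinase to E1 alpha ratio was almost the same in all groups although both genes varied widely. Pdhb per 100 Pdha1 was 63.3 ± 7.44 in LF (54.2 to 71.7) and 75.1 ± 3.07 in HF (70.4 to 79.4), so the 2 chains of E1 stood closer to each other in HF. The ranges met at their edges, with LF laparotomy 1 inside the HF range. No p is given for these ratios, which were computed to describe the genes.

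Inside the E2 core, Pdhx per 100 Dlat was 33.4 ± 0.761 in LF (32.3 to 34.5) and 37.4 ± 1.37 in HF (35.4 to 39.2), without overlap. Within HF and within LF these structural partners kept a narrow ratio. The share of all gene pairs whose ratio separates HF from LF was not computed, so this separation has no background beside it. Dlat per 100 Pdha1 was 29.3 ± 3.29 in LF and 25.2 ± 1.38 in HF, with overlapping ranges (25.1 to 32.9 and 23.4 to 27.1).

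For the switch as a whole, the summed kinases made up 56.8 ± 6.54 TPM per 100 of the summed core subunits in LF and 52.7 ± 5.84 in HF, with ranges of 48.7 to 65.5 and 46.6 to 60.5. Pdp1 per 100 of the kinase sum was 6.16 ± 1.25 in LF and 5.3 ± 0.67 in HF, with ranges of 4.31 to 7.96 and 4.39 to 6.18. Both ranges overlapped, so neither the kinase to core nor the phosphatase to kinase balance separated the groups at the level of transcripts. Pdk4 per 100 Pdk2 was 70.7 ± 20.1 in LF and 70.0 ± 22.4 in HF. That ratio ran from 41 in HF control 3 to 108 in LF laparotomy 1, the widest spread of the 6 ratios plotted, with nearly the same mean on both sides.

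**Figure D3:**
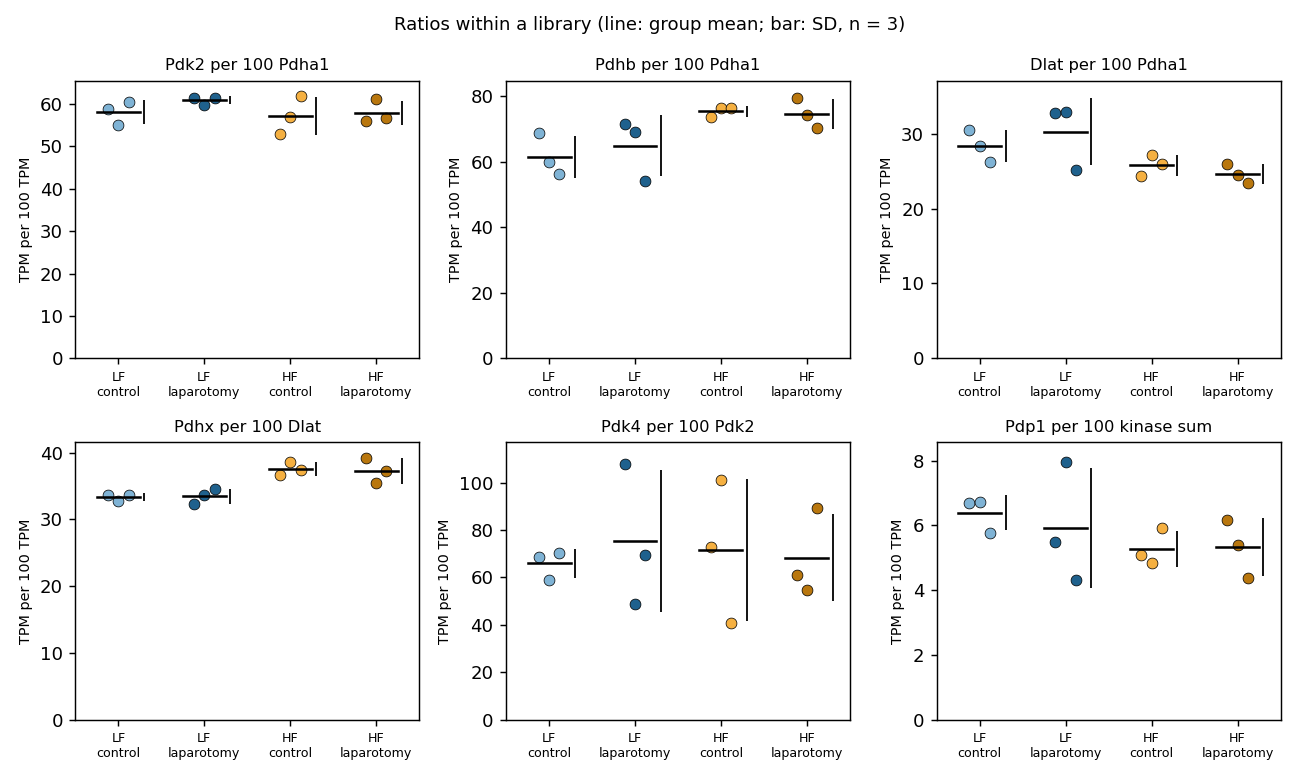
TPM of one gene per 100 TPM of another in the same library (vertical axes, from 0) by group (horizontal axis), with points for libraries, a line for the mean and a bar for the SD of n = 3. Pdk2 per 100 Pdha1 stays between 52.9 and 61.8 in all groups, Pdhx per 100 Dlat separates LF (32.3 to 34.5) from HF (35.4 to 39.2), and Pdk4 per 100 Pdk2 runs from 41 to 108.

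The genes differed in how closely they followed each other from library to library. These correlations of log2(TPM + 1) are a description over 12 libraries that share the group differences, the scaling and any difference in RNA quality. Dlat and Pdhx had a Pearson r of 0.978 over the libraries, and of 0.965 after each group's mean was subtracted. Pdhb, whose difference relative to the all-gene median was near 0, still followed Dlat (0.955) and Pdhx (0.95) within groups. Pdha1 and Pdk2 had an r of 0.974 over the libraries and 0.936 within groups. Pdha1 and Pdp1, in contrast, had 0.809 over the libraries but 0.146 within groups, so that they shared the HF and LF difference more than the variation inside a group. Pdk4 followed no other tested gene of the set closely: its r ran from 0.375 to 0.556 over the libraries and, within groups, was 0.218 with Pdha1, 0.161 with Pdk2 and -0.252 with Pdp1.

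**Figure D4:**
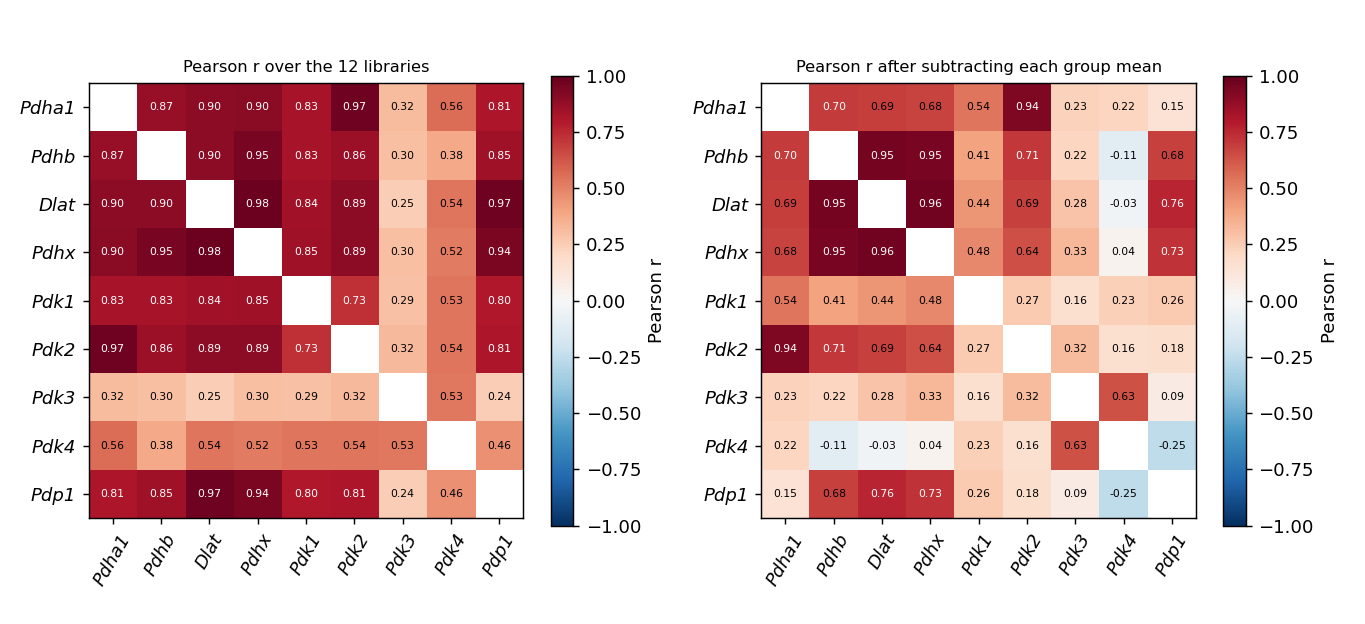
Pearson r of log2(TPM + 1) between each pair of the 9 genes (rows and columns), over the 12 libraries on the left and after subtracting each group's mean on the right, on a colour scale from -1 to 1. Pdha1 with Pdk2 and the trio Pdhb, Dlat and Pdhx stay dark in both panels (0.936 or more within groups for Pdha1 with Pdk2, and for Dlat with Pdhb and Pdhx), and Pdk4 is pale within groups except with Pdk3 (0.633).

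The genes whose pattern over the 12 libraries was most like each member were taken by Pearson r among tested genes averaging 5 TPM or more. For Dlat they were Dlst (r = 0.992), the E2 subunit of the 2-oxoglutarate dehydrogenase complex, Tcaim (0.992), Slc41a1 (0.991), the citrate synthase gene Cs (0.991) and Uqcrc2 (0.991), a core subunit of respiratory complex III. Pdp1 had Uqcrc2 (0.971), Dlat (0.97), Gtf2h3 (0.969), Cs (0.968) and Gatc (0.967), and so shared Cs and Uqcrc2 with Dlat. Pdhx was followed by Pde4a (0.986), Mmachc (0.983), Cox15 (0.982), Mgrn1 (0.978) and Dlat (0.978), and Pdhb was followed by Mrpl9 (0.982), Tomm40l (0.974), Clcn1 (0.959), Zadh2 (0.953) and Pdhx (0.951).

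Pdha1 was most like Dcaf11 (0.994), Arfgef2 (0.989), Acot11 (0.987), Nmnat1 (0.983) and Crat (0.979), the last being carnitine acetyltransferase, which buffers acetyl-CoA. Pdk2 was most like Pgm1 (0.991), Echs1 (0.985), Lamp1 (0.985), Cpsf1 (0.983) and Wdtc1 (0.983), and Pdk1 most like Fam20b (0.985), Acbd5 (0.983), Zfp973 (0.98), Atp11a (0.975) and Pcmtd1 (0.975). Pdk4 had lower values: Ucp3 (0.911), the muscle uncoupling protein known as a PPAR target, came first, then Glmp (0.884), Pym1 (0.882), Ipo11 (0.881) and Cwc22 (0.876). For Pdk3, at its low level, they were Snx11 (0.868), Cc2d1b (0.855), Skiv2l (0.84), Tnfrsf1a (0.822) and Hyal2 (0.813). With this many genes and 12 libraries that differ between groups, high values are common and are given as a ranking only.

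Asked within the treatments, 3 libraries against 3, the difference was below 0 for all 8 genes in both. In controls limma called 2 of the 8 genes lower and 0 higher, where 8.04% of all tested genes were called lower. They were Dlat (-0.45 ± 0.10, adjusted p = 0.0157) and Pdp1 (-0.55 ± 0.12, adjusted p = 0.0155). Both calls ended, leaving 0 of the 8, without LF control 2, LF control 3, HF control 1 or HF control 3 (adjusted p from 0.0547 to 0.0769), and without the 3 libraries with Myh4 above 30 TPM (0.0519 and 0.0572). The number of genes called lower over the whole table fell with them, from 865 to between 2 and 98 in these fits. With a length and GC trend removed Pdp1 lost its call (0.0643) and Pdk2 gained one (0.0217). With size factors the same 2 genes passed, against 8.91% of all genes called lower. The others did not pass: Pdha1 stood at -0.32 ± 0.14 (adjusted p = 0.0656), Pdhx at -0.27 ± 0.12 (0.0588), Pdk2 at -0.34 ± 0.15 (0.0723), Pdk1 at -0.20 ± 0.14 (0.145), Pdk4 at -0.31 ± 0.30 (0.364) and Pdhb at -0.02 ± 0.093 (0.371).

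After laparotomy limma called 6 of the 8 lower and 0 higher, where 24.5% of all tested genes were called lower. With size factors it called 4 of the 8 lower, against 10.7% of all genes. Dlat (-0.54 ± 0.10, adjusted p = 0.00302) and Pdp1 (-0.48 ± 0.12, adjusted p = 0.0048) led again, followed by Pdhx (-0.37 ± 0.12, adjusted p = 0.00894) and Pdk1 (-0.39 ± 0.14, adjusted p = 0.0129). Pdk2 (-0.33 ± 0.15, adjusted p = 0.0271) and Pdha1 (-0.26 ± 0.14, adjusted p = 0.0334) passed, yet their 95% intervals relative to the median gene reached 0.002 and 0.045. With size factors neither passed (adjusted p = 0.141 and 0.193), nor did they without LF laparotomy 2 or 3 or any 1 of the HF laparotomy libraries (0.0564 to 0.111). The Pdk1 call ended without LF laparotomy 2 (adjusted p = 0.0571) or HF laparotomy 2 (0.0546), and those of Pdhx (0.0646) and Pdp1 (0.0655) ended with a length and GC trend removed. Pdhb (-0.05 ± 0.093, adjusted p = 0.0708) and Pdk4 (-0.43 ± 0.30, adjusted p = 0.144) did not pass. That 6 genes passed after laparotomy and 2 in controls does not show a difference between the treatments: the interaction, tested below, called none.

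The comparison that the study set out was laparotomy against control. None of the 8 genes passed, averaged over LF and HF, in LF, in HF, or in the interaction that asks whether the effect of surgery differed between them. limma called 0% of the 10757 tested genes in each of these 4 contrasts. At an unadjusted p under 0.05 there were 747 genes averaged, 291 in LF, 665 in HF and 331 in the interaction, of which 1, 0, 1 and 0 were among the 8.

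The 1 gene was Pdk1 both times: it stood at -0.19 ± 0.098 averaged (limma adjusted p = 0.683) and at -0.28 ± 0.14 in HF (adjusted p = 0.655). In HF its 3 laparotomy libraries (34.5 to 39.5 TPM) lay below its 3 controls (40.8 to 54.7), and in LF the groups overlapped. Relative to the median gene, the averaged values of the 8 ran from -0.195 to 0.054. The 95% intervals were -0.196 to 0.121 for Dlat, -0.263 to 0.165 for Pdha1, -0.238 to 0.23 for Pdk2 and -0.256 to 0.109 for Pdp1. Differences inside these intervals were not excluded by these libraries. For Pdk4 the value was 0.05 ± 0.22, with an interval from -0.412 to 0.52 that is the widest of the set, and its sign changed in 5 of the 22 alternative fits. In the interaction the 8 genes ran from -0.177 for Pdk1 to 0.077 for Pdp1 (adjusted p = 1.0 each).

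Other parts of the complex were followed in lists of genes around it, and here too HF against LF averaged is given. The counts of each list stand beside those of all genes. As deposited, 35.3% of the 10757 tested genes were called lower and 649 genes higher. With size factors, 2212 of 10761 genes were called lower (20.6%) and 2155 higher. Of 5 tested genes that complete or regulate the complex, 3 fell and 0 rose (2 and 0 with size factors). Pdpr, the regulatory subunit of the phosphatase, was lowest, at 26.3 TPM in LF and 7.88 in HF on average (-1.47 ± 0.17, limma adjusted p = 0.000225). Dld, the E3 subunit shared with the sister complexes, went from 157 to 104 TPM (-0.44 ± 0.083, adjusted p = 0.000513). Sirt3, a mitochondrial deacetylase, passed at -0.12 ± 0.082 (adjusted p = 0.0189) but not with size factors (0.506). The other phosphatase Pdp2, at 1.91 and 1.29 TPM, did not pass (adjusted p = 0.0581), nor did Sirt4 (0.729). Pdp1, Pdpr and Dld thus lay on the same side as Dlat.

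The complex needs lipoate on E2 and thiamine pyrophosphate on E1. Of 12 tested genes of their supply 5 fell and 0 rose, with a median of -0.005, and with size factors 2 fell and 2 rose. Those that fell included Oxsm, of the mitochondrial fatty acid synthesis that makes the lipoate precursor (-0.60 ± 0.11, limma adjusted p = 0.000502), the lipoate synthase Lias (-0.17, adjusted p = 0.00317), the lipoyl transferase Lipt1 (-0.17, adjusted p = 0.015) and the iron-sulfur assembly factor Iba57 (-0.13, adjusted p = 0.0311). With size factors Oxsm passed (adjusted p = 0.000689), and Lias, Lipt1 and Iba57 did not. The 2 that rose with size factors, named after their values were seen, were the iron-sulfur assembly genes Bola3 (0.31 ± 0.063, adjusted p = 0.0516 as deposited and 0.00454 with size factors) and Glrx5 (0.25 ± 0.093, 0.405 and 0.032). The thiamine transporter gene Slc19a2, also chosen after its values were seen, stood at 2.68 TPM in LF and 2.35 in HF (adjusted p = 0.396). It does not stand for the thiamine side of the list, where another gene, not named here, was called lower under both scalings.

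Of 13 tested genes of pyruvate supply and its other fates, 8 fell and 0 rose, with a median of -0.208 (3 fell and 2 rose with size factors). Ldha, the muscle lactate dehydrogenase chain (-0.33 ± 0.08, limma adjusted p = 0.00101), the pyruvate kinase Pkm (-0.32 ± 0.089, adjusted p = 0.00197) and the monocarboxylate carrier Slc16a1 (-0.30 ± 0.088, adjusted p = 0.00233) were called under both scalings. Pcx (-0.31), Me1 (-0.21) and Slc16a3 (-0.45) passed as deposited (adjusted p from 0.0189 to 0.0277) and not with size factors. The mitochondrial pyruvate carrier and the heart-type lactate dehydrogenase chain were chosen for mention after their values were seen. Mpc1 stood at 735 TPM in LF and 678 in HF (0.03 ± 0.07, adjusted p = 0.215) and Mpc2 at 376 and 394 (0.21 ± 0.079, adjusted p = 0.545, 0.0429 with size factors). Ldhb stood at 0.32 ± 0.10 (adjusted p = 0.185, 0.00916 with size factors).

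The sister complexes for 2-oxoglutarate and branched-chain keto acids share the architecture of the pyruvate dehydrogenase complex. The list of 10 tested genes also held Dhtkd1, Gcsh and Amt, which belong to neither of these complexes. In the list 5 fell and 2 rose, with a median of -0.089 (4 fell and 2 rose with size factors). The 2 that rose were Bckdhb and, named after its values were seen, Dhtkd1 (0.40 ± 0.097, limma adjusted p = 0.0488). Dlst (-1.23 ± 0.13) and Ogdh (-0.64 ± 0.097), E2 and E1 of the 2-oxoglutarate complex, had limma adjusted p of 0.000147 and 0.000351. In the branched-chain complex its kinase Bckdk (-0.38 ± 0.084, adjusted p = 0.000816) and its E2 Dbt (-0.36 ± 0.11, adjusted p = 0.00317) fell, and its E1 beta chain Bckdhb rose (0.47 ± 0.094, adjusted p = 0.015). Its phosphatase Ppm1k fell as deposited (-0.19 ± 0.10, adjusted p = 0.0194) and did not pass with size factors (0.137). The E2 genes Dlat, Dlst and Dbt of the 3 complexes were thus all called lower in HF under both scalings, while of the E1 beta genes Bckdhb was called higher and Pdhb lower as deposited only.

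Among 15 tested factors known to act on Pdk4 or Pdk1 transcription, 9 fell and 1 rose, with a median of -0.163 (7 fell and 1 rose with size factors). Lower in HF were Ppara, the fatty acid receptor (-1.02 ± 0.21, limma adjusted p = 0.00133), the coactivators Ppargc1a (-0.76 ± 0.13, adjusted p = 0.000514) and Ppargc1b (-0.38 ± 0.13, adjusted p = 0.00676), the receptor Esrrg (-0.61 ± 0.15, adjusted p = 0.00212) and the receptor partner Rxra (-0.33 ± 0.10, adjusted p = 0.0036). The glucocorticoid receptor gene Nr3c1 (-0.30 ± 0.097, adjusted p = 0.00343) and Hif1a (-0.30 ± 0.10, adjusted p = 0.00419) fell too. Foxo3 and Ppard, both at -0.16, passed as deposited (adjusted p = 0.0317 and 0.0473) and not with size factors (0.164 and 0.289). Cebpb rose (0.53 ± 0.13, adjusted p = 0.0267), and Esrra, Foxo1, Nr4a1, Klf15 and Foxo4 did not pass (0.113 to 0.503). Whether the level of any factor bears on that of Pdk4 or Pdk1 was not tested.

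Of 16 tested genes known as PPAR targets in muscle, to which Pdk4 also belongs, 11 fell and 0 rose, with a median of -0.258. With size factors 5 fell. They included Slc25a20 (-0.31), Acadl (-0.26), Plin2 (-0.47) and Acadm (-0.25), which act in fatty acid oxidation or lipid storage and were called under both scalings (limma adjusted p from 0.00141 to 0.00445 as deposited). Cd36 passed as deposited only (-0.20, adjusted p = 0.00999). Ucp3, the nearest neighbour of Pdk4 in pattern, stood at -0.33 ± 0.19 (adjusted p = 0.0566). In laparotomy against control no gene of these 6 lists passed.

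**Figure D5:**
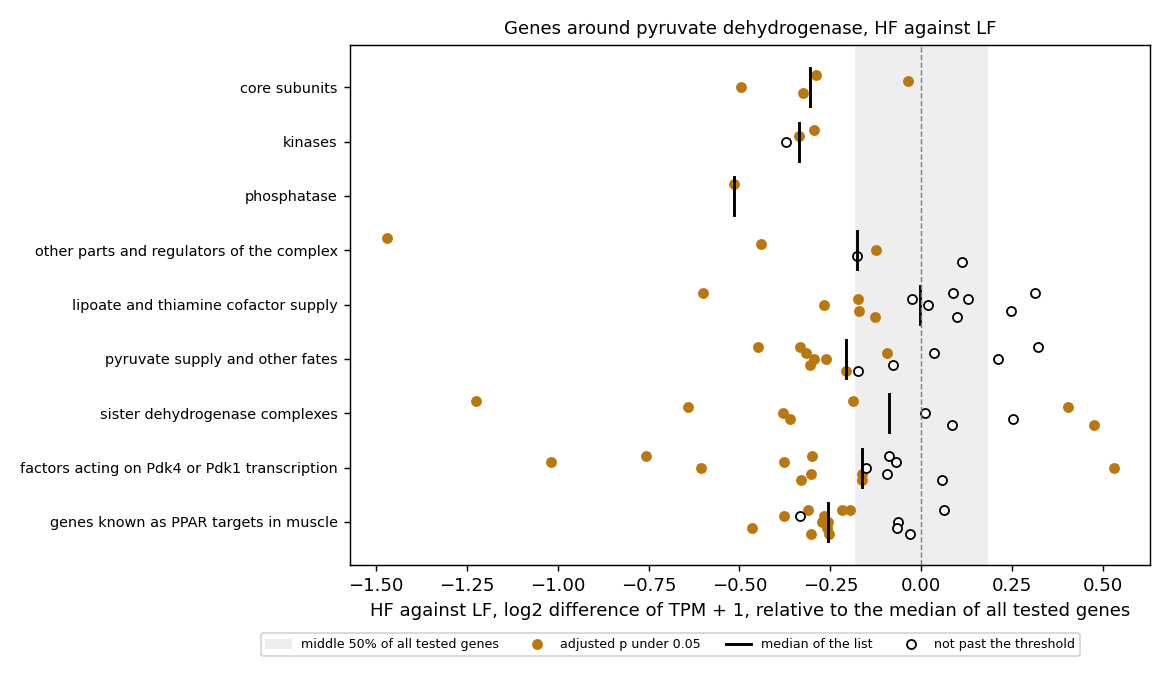
Difference between HF and LF (horizontal axis, log2 of TPM + 1, centred on the all-gene median) of each tested gene in 9 lists (vertical axis), with filled points for an adjusted p under 0.05, open points for the others and a line at the list's median. The grey band holds the middle 50% of all tested genes (-0.179 to 0.181), and Pdpr and Dlst are the lowest points at -1.47 and -1.23.

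Markers bear on what else moved with HF and LF. As deposited, 649 of the 10757 tested genes were called higher in HF, and the marker counts called higher stand beside that. The slow fibre markers that define soleus were abundant. In sum, 6 of them stood at 27400 to 37400 TPM in LF and 34700 to 42600 in HF, and 2 of 6 were called higher in HF. The slow myosin gene Myh7 did not share this direction. Its HF means (2890 TPM in controls, 2430 after laparotomy) lay below its LF means (3030 and 2990, in the same order). Single libraries overlapped, at 2473 to 3339 TPM in LF and 2179 to 3249 in HF. These Myh7 values are not centred on the all-gene median difference (-0.147 in log2), and no centred difference is given for Myh7. Of 6 fast fibre markers 2 were called lower, beside 35.3% of all tested genes. Their sums were 21800 to 27800 TPM in LF and 16800 to 26500 in HF. Among the 6 was Myh2, the type 2A myosin heavy chain of fast oxidative fibres. It stood at 2345 to 3381 TPM in the 6 LF libraries and at 1098 to 2082 in the 6 HF libraries, without overlap. Myh2 thus moved with the members. The other fast markers overlapped between LF and HF, Tnni2 for example at 5529 to 8049 TPM in LF and 5007 to 8468 in HF. Endothelial markers (2 of 6 called higher) summed to 146 to 193 TPM in LF and 175 to 243 in HF, and Schwann cell markers (3 of 6 called higher) to 66.9 to 81.6 and 81.3 to 253, with 253 in 1 HF laparotomy library. Fibroadipogenic markers had 1 of 6 called higher, and the tested macrophage, erythroid and adipocyte markers had 0 called. Adipocyte sums ran from 12.5 to 26.8 TPM in LF and from 4.22 to 85.1 in HF. The adipocyte marker Plin1 was under 0.1 TPM in every library, but others of the list were detected. Cfd ran from 3.07 TPM in HF laparotomy 1 to 61.4 in HF control 3, and Adipoq from 0.429 to 9.46 in the same 2 libraries. The part of these markers, Myh2 included, in the lower values of the 9 genes was not tested. A covariate of Myh4 against Myh7, which leaves out Myh2, gave 7 of the 8 genes and 3840 of the 10757 tested genes called lower (3798 without the covariate). Myh4 was a trace isoform here, at 3.05 to 90.8 TPM. Without the libraries with Myh4 above 30 TPM (LF control 3, LF laparotomy 1 and HF laparotomy 2) the count was also 7, and Pdk4 then stood at -0.15.

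In GRCm38 the genes lie as follows: Pdha1 (ENSMUSG00000031299) at chrX:160122209-160138413, Pdhb (ENSMUSG00000021748) at chr14:8165996-8173025, Dlat (ENSMUSG00000000168) at chr9:50634633-50659780, Pdhx (ENSMUSG00000010914) at chr2:103021075-103073513 and Pdp1 (ENSMUSG00000049225) at chr4:11958184-11966452. The kinases lie at chr2:71873224-71903858 for Pdk1 (ENSMUSG00000006494), chr11:95026258-95041354 for Pdk2 (ENSMUSG00000038967), chrX:93764607-93832201 for Pdk3 (ENSMUSG00000035232) and chr6:5483351-5496309 for Pdk4 (ENSMUSG00000019577). Pdk1 is on the plus strand and the other 8 are on the minus strand. Exons of Pdha1 overlap those of Map3k15 on the opposite strand, which stood at 0.147 TPM, and Pdhb has a copy, Gm6123, that matches it at 97.034% over 1079 bases and stood at 0.0973 TPM. Both stood far below the member concerned.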

How the data were processed

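Soleus RNA was polyA selected and made into libraries with a stranded kit, per the labels' protocols. The authors deposited 1 table of gene-level TPM for 12 libraries, and kallisto, DESeq2 and GRCm38 are named in the submitters' processing notes. Versions, roles and the strand setting were not given in the sources used here. Library sums of TPM were 956473 to 962830 per library, with 16993 to 18148 genes above 0. Counts were not used here, so no depth or counting error could be given. Symbols and coordinates were matched in GENCODE M21 (GRCm38) for 29857 of 30323 identifiers, and promoters came from RefSeq (GRCm38.p6).

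From the deposited TPM, log2(TPM + 1) was fitted with a mean-variance trend in limma 3.58.1 (R 4.3.3), using 1 mean for each group, which left 8 residual degrees of freedom. The fit covered 10757 genes averaging 1 TPM or more, with Benjamini-Hochberg adjustment in each of 7 contrasts and two-sided tests. Differences are printed minus the all-gene median of their contrast. The steps were tested on simulated data. The members and lists were chosen with earlier results of these data known, and no list is independent evidence of its direction. Named genes were the 9 members, up to 6 genes past the threshold per list by smallest p, all listed transcription factors and the 5 genes most correlated with each member, leaving out predicted and Riken symbols. A few genes past the threshold by this rule are not reported here.

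Alternatives changed the pseudocount (0.5 or 0.1), the minimum (none, or 5 TPM) or the scaling. The scalings were size factors, quantile normalization, TPM recomputed after dropping 13 mitochondrially encoded and the 10 highest genes (rescaled TPM), and removal of a length and GC trend. Others fitted just the compared groups, added log2(Myh4 + 1) minus log2(Myh7 + 1) as a fast muscle covariate, dropped the high Myh4 libraries (over 30 TPM) or dropped each library in turn.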

Additional observations from a re-analysis of the deposited data

How the results depend on the processing

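The 7 genes called lower in HF averaged over treatments numbered 6 to 8 under every alternative run. In controls the count of 2 became 4 with a mean of at least 5 TPM or quantile normalization, 5 on rescaled TPM or when only the groups compared were fitted, and 0 without the libraries with Myh4 above 30 TPM. Leaving out 1 library gave 0 to 5: 5 without LF laparotomy 1 or LF laparotomy 3, whose removal changes only the shared estimate of spread and the genes tested. After laparotomy the count of 6 became 3 after removal of the length and GC trend, and 3 to 7 without 1 library (3 without LF laparotomy 2 or HF laparotomy 2). The genes called lower over the whole table moved too, so the member counts did not change alone. Averaged, 3798 became 2020 after removal of the trend and 4477 without LF laparotomy 1. In controls 865 of 10757 became 883 of 6657 under the 5 TPM minimum and 1139 of 10757 with quantile normalization. The count was 1704 of 11910 on rescaled TPM and 1270 of 10757 when only the groups compared were fitted. Without LF control 2 it was 2, and without LF laparotomy 1 it was 1686. After laparotomy 2635 became 995 without LF laparotomy 2 and 1046 after removal of the trend. For laparotomy against control and the interaction the count among the members was 0 in every fit run. Over the whole table a few genes were called in some of these fits, at most 5, in LF with no filter. Pdhb changed sign in controls with a pseudocount of 0.1 (0.0025), a mean of at least 5 TPM (0.0048) and size factors (0.0071). With 1 library left out Pdhb ran from -0.0693 to 0.0053 averaged, from -0.067 to 0.0334 in controls and from -0.1131 to 0.0336 after laparotomy, being above 0 without HF laparotomy 3, HF control 1 and HF laparotomy 3. Pdk4, laparotomy against control averaged, changed sign with no filter (-0.0) and with the fast muscle covariate (-0.0005). It ran from -0.0737 to 0.2099 with 1 library left out, below 0 when that was HF control 3 (-0.0737), LF laparotomy 1 (-0.0539) or HF laparotomy 3 (-0.0223). Where no reason is given the cause was not tested. Fitting only the groups compared is the same as the full fit for averaged contrasts and the interaction. No paired analysis was possible because the labels carry no replicate numbers. The depth is unknown, and 3 libraries a group limit the precision.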
